A study of Homo sapiens with 27 samples.

Results

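The beta-like globin genes HBE1, HBG2, HBG1, HBD and HBB stand in a row on chromosome 11, with the olfactory receptor genes OR51B4, OR51B2, OR51B5 and OR51B6 directly beyond HBE1. These 9 genes were selected on measured values, since HBE1 and OR51B4 had been seen to differ together between the cell lines of this study, and the other members are their neighbours of the same families. The differences between lines are therefore given as a description without a test. All 9 genes had a probe, and 10 of the 48803 probes on the arrays belonged to them, OR51B5 having a pair. Of these 10 probes, 7 were above the array's background level on at least 3 of 27 arrays (HBE1, HBG1, HBG2, OR51B4, OR51B2 and both OR51B5 probes), as were 23271 probes of the whole array. The background level of an array was the 95th percentile of 543 probes for receptor, keratin-associated and defensin genes taken as silent in these cells.

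The study asked how nuclear envelope transmembrane proteins (NETs) that move chromosomes towards the nuclear periphery change gene expression in cells that do not normally make them. RNA of HT1080 cells, an established human fibrosarcoma line, was hybridised to Illumina bead arrays, 1 array per sample. Stable lines carried full-length NET29 (encoded by TMEM120A; n = 4), NET39 (PLPP7; n = 4) or NET47 (TM7SF2; n = 3) fused to green fluorescent protein (GFP), and the untreated cells (n = 4) carried no construct. Transient transfections carried the soluble fragment of NET29, NET39 or NET47, or NLS-GFP, a GFP sent to the nucleus on its own, with n = 3 each. The stable lines were selected with Geneticin and then enriched by sorting for GFP, so they differ from untreated cells in selection as well as in the transgene. The number of independent lines or clones and the promoter of the constructs were not stated in the labels or methods. The stable lines were sampled at separate passages, but the methods name fewer passages than NET29 and NET39 have arrays. The methods call the replicates biological, at least 3 in each analysis. The errors given still reflect the spread between arrays, which may be technical, and each standard error (SE) pools it over all 8 groups.

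Each beta-like globin gene encodes the beta-type chain of a haemoglobin, and red cell precursors use them one after another in development, in the order in which they stand along the chromosome. A distant enhancer, the locus control region, lies between HBE1 and the olfactory receptor genes and drives the globin genes in erythroid cells. Olfactory receptors are the odorant receptors of nasal sensory neurons, and in most other tissues their genes are silent, as the globin genes are.

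TM7SF2 averaged 12.50 ± 0.13 in the NET47 full-length line and 6.55 ± 0.08 in untreated cells (normalised log2 intensity, SD, n = 3 and 4), and TMEM120A 8.22 ± 0.26 in the NET29 full-length line and 6.91 ± 0.27 in untreated cells (n = 4 each). The PLPP7 probe was above background on 0 of 4 arrays of the NET39 full-length line and on 4 of 4 untreated arrays, and since its place relative to the construct was not examined it does not check that label. In the transient groups TM7SF2 averaged 6.70 in the NET47 fragment and 6.73 in NLS-GFP, and TMEM120A 7.10 in the NET29 fragment and 6.78 in NLS-GFP. Whether these probes lie within the fragments was not examined, so the labels of the soluble groups were not checked by them. Of 9 mesenchymal marker genes 8 were above background on all 27 arrays. Of 8 measured erythroid marker genes, 0 were above background on all arrays and 4 on none (EPB42, AHSP, RHAG and HEMGN), and SLC4A1, GATA1, KLF1 and ALAS2 were above it on 1 to 4 arrays. Background levels were 51.1 to 64.1 (deposited intensity) in untreated and stable arrays and 60 to 80.8 in transient ones, so values are compared after normalisation. Untreated replicates 2 and 4 and NET47 full-length replicate 3 had stood apart from their groups in an earlier analysis, and results that move without them are given both ways.

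HBE1, the embryonic beta-like globin, was above background on all 27 arrays. On the normalised log2 scale the arrays of the NET29 full-length line read 7.27, 7.49, 7.11 and 7.15, against 9.26, 10.08, 9.70 and 9.58 in untreated cells. The NET39 full-length arrays read 9.86, 10.59, 10.18 and 9.96, and the NET47 full-length arrays 9.78, 9.84 and 10.08. Every array of the NET29 line therefore lay below every untreated array, while the other lines overlapped with untreated cells. In deposited intensities, before any normalisation, the same probe read 123 to 164 in the NET29 full-length line and 423 to 1184 in untreated cells.

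HBE1 was 5.28-fold lower in the NET29 full-length line than in untreated cells (log2 difference -2.40 ± 0.15, SE). Counted from the most strongly lowered, it was number 6 of 48803 probes. The difference was 0.49 ± 0.15 in the NET39 full-length line and 0.24 ± 0.16 in the NET47 full-length line, both with arrays that overlapped those of untreated cells. Without the 3 arrays named above neither line overlapped with untreated cells, at differences of 0.67 for the NET39 line and 0.33 for the NET47 line, and the NET29 line's difference was -2.23. Without untreated replicate 2 alone the NET39 line's arrays did not overlap, at 0.63. Set against NLS-GFP cells instead, the differences were -0.14 for the NET39 line and -0.39 for the NET47 line, both in the opposite direction, and -3.03 for the NET29 line. In bulk RNA, fewer expressing cells and less RNA per cell cannot be told apart.

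**Figure D1:**
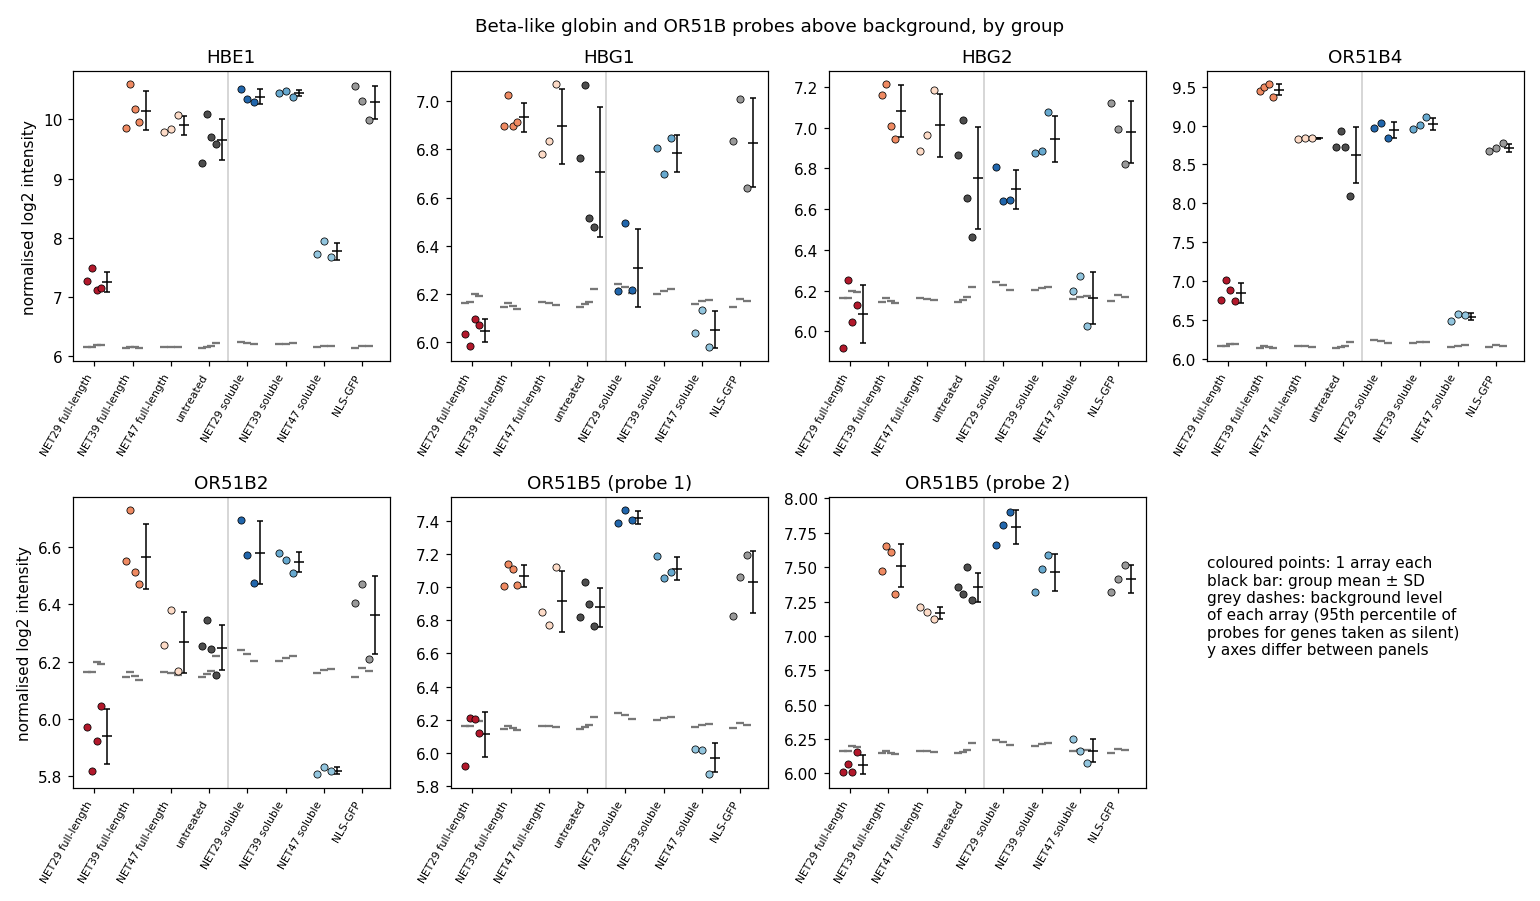
Normalised log2 intensity (y axis, scales differ between panels) of the 7 member probes above background on at least 3 arrays, in the 8 groups (x axis); each point is 1 array, black bars are group means ± SD and grey dashes are each array's background level. In every panel the NET29 full-length and NET47 soluble groups are the lowest, with HBE1 means of 7.25 and 7.78 against 9.66 to 10.44 in the other groups.

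The rule for the members names differences between lines, so the fragments were tested, but the rule was set with results of all 8 groups known and the p-values do not cover that choice. The tests against NLS-GFP share its 3 arrays. The HBE1 probe read 7.72, 7.94 and 7.67 in cells with the NET47 soluble fragment, against 10.55, 10.30 and 9.99 in NLS-GFP cells. It read 10.52, 10.35 and 10.28 with the NET29 soluble fragment and 10.45, 10.48 and 10.38 with the NET39 soluble fragment. The NET47 fragment arrays were thus apart from all other transient arrays, and the NET29 and NET39 fragment arrays lay within the range of NLS-GFP.

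HBE1 fell by 2.51 on the log2 scale with the NET47 soluble fragment against NLS-GFP (SE 0.17, 5.69-fold lower, limma's adjusted p = 3.45e-09 over all probes). With the NET29 fragment the difference was 0.10 (95% interval -0.26 to 0.46, adjusted p = 0.86) and with the NET39 fragment 0.15 (-0.21 to 0.51, adjusted p = 0.866). Under median scaling the NET29 fragment's difference turned to -0.39 (adjusted p = 0.575). The difference between fragments was itself past the limits, at -2.61 ± 0.17 for NET47 against NET29 (adjusted p = 4.07e-10) and -2.66 ± 0.17 for NET47 against NET39 (adjusted p = 7.83e-10). HBE1 was thus low in the line with full-length NET29 and with the fragment of NET47, and HBE1 in the NET29 fragment and the NET47 line overlapped with their controls.

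HBG1 and HBG2, the fetal gamma globins, gave signals near background, and because their transcripts are nearly identical the probes may not tell them apart. HBG1 read 6.03, 5.99, 6.09 and 6.07 in the NET29 full-length line, against 6.76, 7.07, 6.52 and 6.48 in untreated cells. It was above background on 0 of 4 arrays of that line and on all 4 untreated arrays, so the fold is a bound, at least 1.44-fold lower, with a measured difference of -0.66 ± 0.10. HBG2 read 5.92, 6.25, 6.05 and 6.13 in the NET29 full-length line, against 6.86, 7.04, 6.65 and 6.46 in untreated cells. It differed by -0.67 ± 0.10, and 1 of 4 arrays of the line was above background. The NET39 and NET47 full-length lines were higher than untreated cells by 0.23 and 0.19 for HBG1 and by 0.33 and 0.26 for HBG2, with arrays that overlapped, as HBE1 did.

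With the NET47 soluble fragment HBG1 read 6.04, 6.13 and 5.98, against 6.84, 7.01 and 6.64 in NLS-GFP cells, and no fragment array reached background. HBG2 read 6.20, 6.27 and 6.03 with the fragment, against 7.12, 6.99 and 6.82 in NLS-GFP cells. HBG1 fell by 0.78 ± 0.12 (at least 1.58-fold lower, limma's adjusted p = 0.000346), and HBG2 fell by 0.81 ± 0.12 (adjusted p = 0.000296). Under median scaling of the arrays the HBG2 difference was -0.74 with an adjusted p of 0.0831, no longer past the limit. HBG1 also fell by 0.52 ± 0.12 with the NET29 soluble fragment (adjusted p = 0.0236), where HBG2 differed by -0.28 ± 0.12 (adjusted p = 0.284). That HBG1 call was lost without NLS-GFP replicate 1 or 2 or NET29 soluble replicate 1 or 3, with adjusted p of 0.0645 to 0.168, and under median scaling.

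HBD and HBB, the globins of adult haemoglobins, were near background throughout. HBD was above it on 2 untreated arrays and on no array of any other group, and its group means lay between 5.89 in the NET39 full-length line and 6.09 in untreated cells. HBB was above background on 1 array each of the NET29 full-length and NET29 soluble groups, with means between 5.92 and 6.18. In the NET29 full-length line the differences from untreated cells were -0.14 ± 0.08 for HBD and 0.06 ± 0.08 for HBB. In the NET47 soluble fragment against NLS-GFP they were -0.02 ± 0.09 and 0.04 ± 0.09, with adjusted p of 0.987 and 0.97. Probes at background carry little information on change, so these values do not show that the adult genes were unaffected.

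HBD was the 1 of 9 members with an entry in the promoter table, so its proximal promoter is shown here, as the globin start for which bases could be read, beside its near-background values. The 120 bases before its start (RefSeq, GRCh38.p14, minus strand, chr11:5234484-5234603) read as follows, with the matches to 2 searched motifs in capitals.
HBD: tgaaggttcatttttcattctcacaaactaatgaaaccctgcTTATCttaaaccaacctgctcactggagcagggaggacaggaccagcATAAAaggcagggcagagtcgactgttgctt
Searched on both strands, ATAAA (a core of the TATA box) matched once, 31 bases before the start, and GATAA (the core of a GATA factor site) matched once on the other strand as TTATC, from 78 bases before it. CCAAT and CACCC, letters that other beta-like globin promoters carry, had no match in this window. Of 35116 promoters searched in the same window, 17.8% held ATAAA, 9.65% GATAA, 20.4% CCAAT and 33.6% CACCC.

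OR51B4 is the olfactory receptor gene nearest to HBE1, and its probe too was above background on all 27 arrays. It read 6.76, 7.02, 6.89 and 6.74 in the NET29 full-length line, against 8.73, 8.93, 8.72 and 8.10 in untreated cells. The NET39 full-length arrays read 9.44, 9.50, 9.53 and 9.37, and the NET47 full-length arrays 8.83, 8.84 and 8.84. The NET29 line was below and the NET39 line above every untreated array, and the NET47 line lay within the untreated range. OR51B4 was 3.40-fold lower in the NET29 line (-1.77 ± 0.11), number 23 of 48803 probes from the most lowered, and 1.79-fold higher in the NET39 line (0.84 ± 0.11). The NET39 difference was 0.67 without untreated replicate 4. Under median scaling it was 0.91, but the arrays overlapped. They overlapped in deposited intensities as well, at 669 to 936 in the NET39 line and 169 to 765 in untreated cells.

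With the NET47 soluble fragment OR51B4 read 6.49, 6.57 and 6.57, against 8.67, 8.71 and 8.77 in NLS-GFP cells. The NET29 fragment arrays read 8.96, 9.04 and 8.84 and the NET39 fragment arrays 8.95, 9.0 and 9.11, all above the NLS-GFP arrays. OR51B4 fell by 2.17 ± 0.12 with the NET47 fragment (4.51-fold lower, limma's adjusted p = 6.07e-11). With the NET29 and NET39 fragments the differences were 0.23 (95% interval -0.02 to 0.49, adjusted p = 0.414) and 0.31 (0.05 to 0.56, adjusted p = 0.44), neither past the limits. Under median scaling the NET29 fragment's difference turned to -0.25 (limma's adjusted p = 0.741).

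OR51B5, whose annotated span takes in OR51B6 and several further receptor genes, had a pair of probes. The first read 5.92, 6.21, 6.21 and 6.12 in the NET29 full-length line, against 6.82, 7.03, 6.90 and 6.76 in untreated cells. The second read 6.01, 6.06, 6.01 and 6.16 in the NET29 full-length line, against 7.36, 7.30, 7.50 and 7.26 in untreated cells. The differences were -0.76 ± 0.08 for the first probe and -1.29 ± 0.08 for the second, at least 2.26-fold lower since the second was above background on no array of the line. The first probe was above it on 2 of 4 arrays of the line.

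With the NET47 soluble fragment the first OR51B5 probe read 6.02, 6.02 and 5.87, against 6.83, 7.06 and 7.20 in NLS-GFP cells. The second read 6.25, 6.17 and 6.08 with the fragment, against 7.32, 7.41 and 7.52 in NLS-GFP cells. For both, every fragment array lay below every NLS-GFP array. The probes fell by 1.06 ± 0.10 (at least 1.82-fold lower, adjusted p = 2.62e-07) and 1.25 ± 0.09 (2.38-fold lower, adjusted p = 3.45e-09). With the NET29 fragment they were higher by 0.39 ± 0.10 and 0.37 ± 0.09, with adjusted p of 0.0393 and 0.0311, but short of the limit of 0.5 on the log2 scale. After quantile normalisation the fragments of NET29 and NET47 thus stood on opposite sides of NLS-GFP for both probes. In deposited intensities, however, the NET29 fragment averaged 122 and 155, below NLS-GFP at 132 and 172. The difference of NET47 from NET29 was -1.45 ± 0.10 and -1.63 ± 0.09 (adjusted p = 3.37e-10 and 1.1e-11).

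OR51B2 was near background in all groups. It read 5.97, 5.82, 5.92 and 6.04 in the NET29 full-length line, against 6.26, 6.35, 6.25 and 6.15 in untreated cells, without overlap, at a difference of -0.31 ± 0.07. With an offset of 16 in the background correction the difference was -0.62, past the limit of 0.5. No array of that line and 3 of 4 untreated arrays were above background. With the NET47 soluble fragment it read 5.81, 5.83 and 5.82, against 6.41, 6.47 and 6.21 in NLS-GFP cells, and 0 fragment arrays were above background. It fell by 0.54 ± 0.08 (at least 1.14-fold lower, adjusted p = 0.00024), and without NLS-GFP replicate 2 the difference was -0.49, inside the limit. OR51B6 was above background on no array, with differences of -0.00 ± 0.06 in the NET29 line and -0.16 ± 0.07 with the NET47 fragment (adjusted p = 0.63).

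Counted over the 10 member probes, 6 were lower in the NET29 full-length line than in untreated cells by more than 0.5 with arrays that did not overlap, and 0 were higher. Over all probes 1.49% differed by this measure in either direction and 1.03% were lower, but the rule for the members used this contrast. Among the probes above background on at least 3 arrays, 2.16% were lower. The median of the 10 differences was -0.66, against 0.00 over all probes. The 6 probes stand for 5 genes, of which HBG1, HBG2 and OR51B5 were at or near background in the NET29 line. In the NET39 full-length line 1 probe, OR51B4, was higher (1.68% of all probes differed and 0.557% were higher), and in the NET47 full-length line 0 of 10 differed (0.676%). NLS-GFP cells and untreated cells differed at 0 of 10 probes (0.615%), with HBE1 higher by 0.63 ± 0.16 in NLS-GFP cells but with overlapping arrays. Without the 3 arrays named above that difference was 0.80 with no overlap. Without untreated replicate 2 or NLS-GFP replicate 3 alone it was 0.77 in each case, again with no overlap. It was smaller under median scaling, at 0.39 ± 0.28, and without untreated replicate 1 (0.496) or NLS-GFP replicate 1 (0.494). OR51B4 differed by 0.10 ± 0.12 between NLS-GFP and untreated cells, and by -0.12 under median scaling.

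The lines were also set against each other. The rule for the members used differences between lines, so these counts and ranks restate that choice. Between the NET39 and NET29 full-length lines 7 of 10 member probes differed, all higher in NET39, while over the whole array 63 of 48803 probes did (0.129%, with 0.0676% higher). Among the probes above background on at least 3 arrays 0.142% were higher. HBE1 was 7.42-fold and OR51B4 6.10-fold higher in the NET39 line, the first and second of all probes counted from the highest difference, and the OR51B5 probes were numbers 4 and 8. The NET47 full-length line was higher than the NET29 full-length line at 6 of 10 probes (1.36% of all probes differed and 0.961% were higher), with HBE1 6.25-fold and OR51B4 3.96-fold higher. It was lower than the NET39 full-length line at 1, OR51B4 (-0.62 ± 0.12), where 1.42% of all probes differed and 0.426% were lower.

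**Figure D2:**
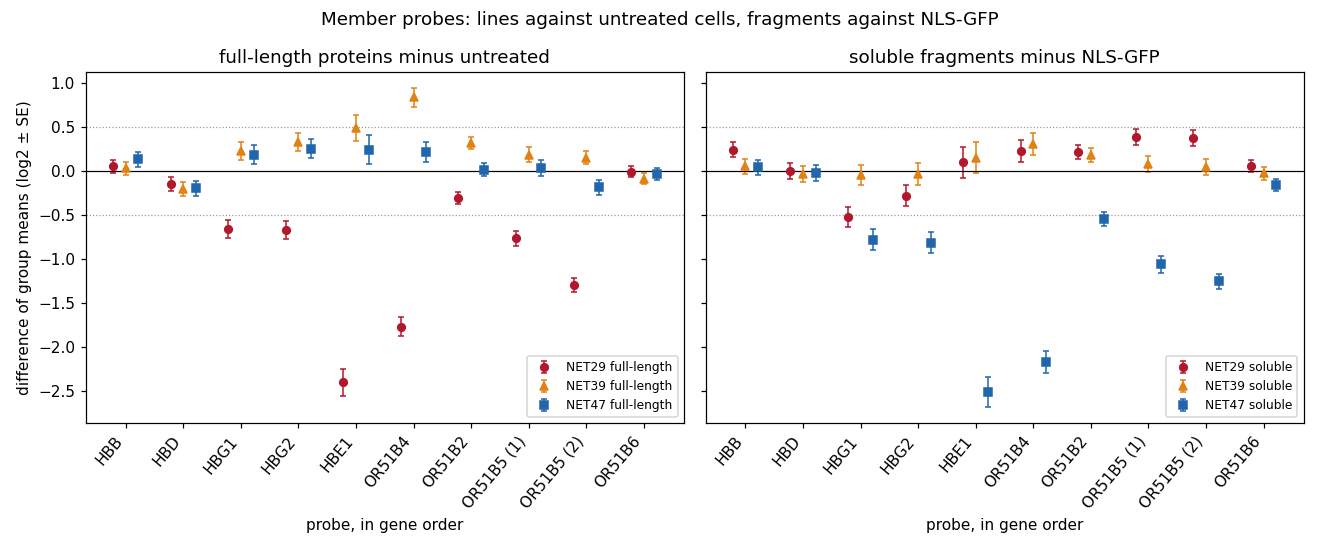
Differences of group means (y axis, log2 ± SE) of the 10 member probes in gene order (x axis), for the full-length lines against untreated cells on the left and the soluble fragments against NLS-GFP on the right; dotted lines mark 0.5 in either direction. The NET29 line and the NET47 fragment have their largest differences at HBE1 (-2.40 and -2.51) and OR51B4 (-1.77 and -2.17), and HBB, HBD and OR51B6 stay within 0.25 of 0 in both.

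Among the fragments, 7 of 10 member probes fell with the NET47 soluble fragment against NLS-GFP and 0 rose, where 0.572% of all probes passed the same limits and 0.387% fell. Among the probes above background on at least 3 arrays 0.812% fell. The members that fell were HBE1, HBG1, HBG2, OR51B4, OR51B2 and both OR51B5 probes, and the median over all 10 was -0.80, against 0.00 over all probes. These 7 probes stand for 6 genes, and those of HBG1 and HBG2 may not be distinct. With the fragment all of them but HBE1 and OR51B4 were at or near background. With the NET29 soluble fragment 1 of 10 passed, HBG1 (0.684% of all probes passed and 0.363% fell), and with the NET39 soluble fragment 0 of 10 (0.0799%). Set against each other, the NET47 fragment was lower than the NET29 fragment at 6 probes, where 1.76% of all probes passed and 0.897% were lower. It was lower than the NET39 fragment at 7, where 0.932% passed and 0.504% were lower, and the NET39 and NET29 fragments differed at 0 (0.428%). HBE1 ranked number 8 and OR51B4 number 9 of all probes from the most lowered with the NET47 fragment against NLS-GFP. The members were chosen with results of all 8 groups known, so these counts and ranks are not independent of that choice.

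Ordered by group mean, HBE1 was lowest in the NET29 full-length line, next in the NET47 fragment and then in untreated cells, with no overlap between neighbours among these groups. From untreated cells upwards, through the NET47 and NET39 full-length lines, NLS-GFP and the NET29 fragment to the NET39 fragment, each group overlapped with the next. OR51B4 had the NET47 fragment lowest and the NET29 line next, again without overlap, and the NET39 line highest. For all 7 probes above background these were the lowest groups, in either order. The HBG1, HBG2, OR51B2 and OR51B5 probes overlapped between them, at or near background.

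The genes on either side of the members were then examined, in the gene order of the reference table. Of 51 further genes with a probe, 25 on each side and HBBP1 between HBD and HBG1, 12 were above background on at least 3 arrays. In the NET29 full-length line 1 of the 51 was lower than in untreated cells and 0 were higher, where 2.96% of 18665 genes differed. That gene was TRIM22, an interferon-induced antiviral gene, which averaged 7.63 in the NET29 line and 8.37 in untreated cells. TRIM22 was lower in the NET39 (-0.74 ± 0.11) and NET47 (-0.84 ± 0.12) lines too, in which 0 of the 10 member probes were lower.

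With the NET47 soluble fragment 0 of the 51 neighbours passed against NLS-GFP (1.17% of genes did). The nearest to it was OR51I1, a receptor gene a few places beyond OR51B6, with a mean of 6.06 for the NET47 fragment and 6.58 for NLS-GFP (-0.52 ± 0.13, adjusted p = 0.0664). OR51I1 did pass for the NET47 fragment against the NET29 fragment (-0.51 ± 0.13, adjusted p = 0.0313), where 3.29% of all genes passed. HBBP1, the pseudogene within the cluster, was above background on 4 arrays and differed by 0.03 ± 0.06 in the NET29 line and 0.08 ± 0.07 with the NET47 fragment (adjusted p = 0.87). Of 363 olfactory receptor genes outside the members, 0 were past the limits in the NET29 line and 0 with the NET47 fragment. Only 47 of the 363 were above background on at least 3 arrays, so few could have fallen. Receptor probes also helped to set the background level.

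**Figure D3:**
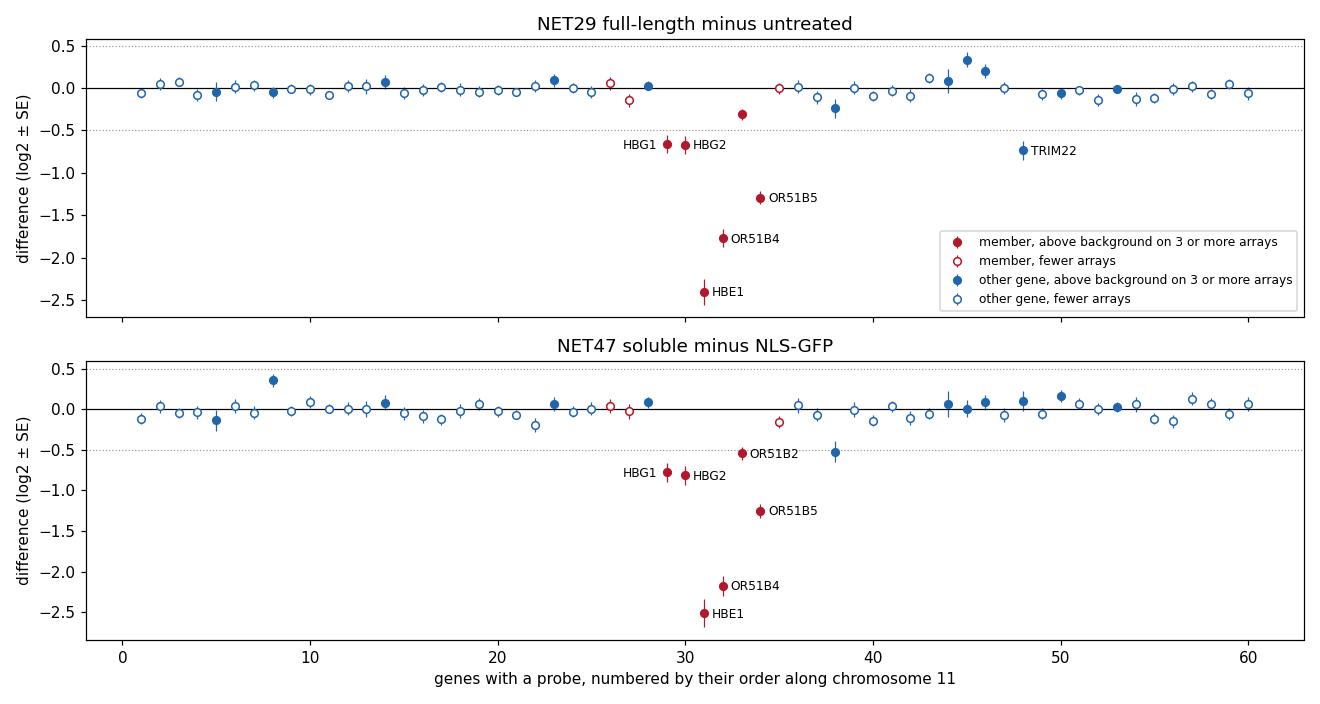
Differences (y axis, log2 ± SE) of 60 genes with a probe, numbered by their order along chromosome 11 (x axis), for the NET29 full-length line against untreated cells above and the NET47 soluble fragment against NLS-GFP below; members are red, other genes blue, open symbols were above background on fewer than 3 arrays, and names mark genes past the limits. The members from HBG1 to OR51B5 hold the low values in both panels, and TRIM22 (-0.74, upper panel) is the 1 other gene past the limits.

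Globin genes outside the cluster were counted next. Of 9 measured genes of the alpha-like and other globin list, 4 were above background on at least 3 arrays, 1 was lower in the NET29 full-length line (2.96% of all genes differed) and 0 passed with the NET47 fragment (1.17% of all genes passed). The 1 was CYGB, cytoglobin, a globin of fibroblast-like cells, with means of 6.04 in the NET29 line and 6.64 in untreated cells (-0.59 ± 0.11). It was lower in the NET39 line as well (-0.68 ± 0.11). The alpha globins HBA1 and HBA2 were above background on 1 and 3 arrays.

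Of 46 known regulators of beta-like globin genes 44 were measured, and 1 was higher and 0 lower in the NET29 full-length line, where 2.96% of all genes differed. That 1 was BCL11A, a repressor of the gamma globin genes in adult red cells, with means of 9.18 in the NET29 line and 8.08 in untreated cells (1.09 ± 0.14). It was higher in the NET39 line too, by 1.31 ± 0.14, and in the NET47 line by 0.66 ± 0.15. Whether BCL11A bears on the globin genes in these cells was not tested. With the NET47 soluble fragment BCL11A differed from NLS-GFP by 0.27 (adjusted p = 0.795).

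Of the same 44, GATA2 was the 1 that passed with the NET47 fragment against NLS-GFP, where 1.17% of all genes passed. GATA2, a transcription factor of blood progenitors, fell by 0.55 ± 0.09 (adjusted p = 0.00109), with means of 6.31 for the fragment and 6.86 for NLS-GFP. In the NET29 full-length line GATA2 differed by 0.10. MTA2, a subunit of the NuRD repressor complex, rose by 0.74 ± 0.13 with the NET29 fragment (adjusted p = 0.00377) and by 0.71 ± 0.13 with the NET39 fragment (adjusted p = 0.0223). It was the 1 of the 44 that passed in each, where 1.3% and 0.145% of all genes passed. NFE2L1, which binds the same sites as the erythroid factor NFE2, was lower in the NET47 than in the NET29 fragment (-0.62 ± 0.11, adjusted p = 0.0015). In that comparison 1 of the 44 was higher and 1 lower, where 3.29% of all genes passed. NFE2L2, a relative of NFE2L1, was higher in NLS-GFP than in untreated cells (0.65 ± 0.22), where 1.04% of all genes differed.

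Erythroid genes other than the globins gave no calls. Of 13 measured genes of the erythroid list 0 passed in the NET29 line and 0 with the NET47 fragment, where 2.96% and 1.17% of all genes did. Only 4 of the 13 were above background on at least 3 arrays, so few could have passed. The summed deposited intensity of the 8 measured defining markers was 338 to 394 in the NET29 full-length line and 364 to 427 in untreated cells, and 523 to 543 with the NET47 fragment and 501 to 550 with NLS-GFP, overlapping in both pairs. Most of these signals were below background and not normalised, so the sums carry little information on the markers. Of 9 measured haem synthesis genes, all 9 above background on at least 3 arrays, 0 passed in either comparison. UROS, uroporphyrinogen III synthase, fell with the NET29 fragment (-0.56 ± 0.13, adjusted p = 0.0326), where 1.3% of all genes passed.

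The genes whose levels over the 8 groups were most like those of HBE1 were then sought. As a measure of likeness, the 8 group means of each gene were centred and the root mean square difference to the centred HBE1 means was taken, so that genes of a smaller range score as less alike. OR51B4 differed from HBE1 by 0.373, which restates the choice of this pair for differing together between lines. The OR51B5 probes differed by 0.727 and 0.594, HBG2 by 0.842, HBG1 by 0.909 and OR51B2 by 0.924, where the spread of the HBE1 means themselves was 1.17. Among 10677 other genes above background in at least 1 group, the nearest were SPATA18 at 0.848, PTGR1 at 0.855, LYPD1 at 0.858, FABP5 at 0.862 and PTGS2 at 0.868, all nearer to HBE1 by this measure than HBG1 and OR51B2. The nearest to OR51B4 were PTGR1 at 0.674, S100A2, GAL, EFEMP2 and TOX2, against a spread of 0.999.

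Within groups and after quantile normalisation, the arrays in which HBE1 was above its group mean were not clearly those in which OR51B4 was. Over 27 arrays the deviations from the group means had a Pearson r of 0.281 (two-sided permutation p = 0.45 with 100000 resamples within groups) and a Spearman rho of 0.248 (permutation p = 0.275). Without the 2 arrays farthest from the median HBE1 deviation r was 0.0803 (permutation p = 0.749). Among the 15 untreated and stable arrays r was 0.367 (permutation p = 0.414) and among the 12 transient arrays -0.202 (permutation p = 0.516). Under median scaling r was 0.814 (permutation p = 0.00029), so the answer depends on how the arrays were scaled. After quantile normalisation the HBE1 deviations had an r of -0.013 with those of the array's background level. The cause of the dependence was not tested.

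**Figure D4:**
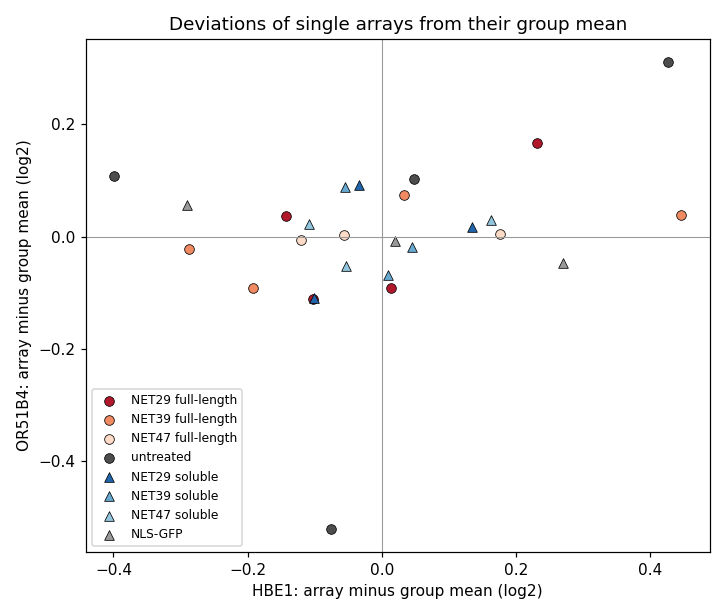
Deviation of each of 27 arrays from its group mean (log2) for HBE1 (x axis) and OR51B4 (y axis); circles are untreated and full-length arrays, triangles transient ones. After quantile normalisation the points scatter without a clear line (r = 0.281), but r was 0.814 under median scaling. The untreated arrays (dark circles) hold the lowest and the highest OR51B4 deviation.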

How the data were processed

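RNA was measured by the authors on HumanHT-12 v3 bead arrays. Sample titles gave the groups, and the labels call the soluble-fragment cells transient where the paper in 1 place calls them stable. The intensity table that the authors deposited was not normalised. The log2 table that the authors deposited was quantile normalised with limma, whose version they do not state, and was an alternative. Probe symbols came from the platform annotation (27577 probes with 1 gene, 13 with several, 21213 with none), and 27540 were found in the reference gene table, which gave names and gene order only.

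Intensities went through normexp (offset 50), quantile normalisation and log2 in limma 3.58.1 (R 4.3.3). The offset draws folds towards 0 where a group is dim, large folds included. A linear model of 8 group means was fitted to the 27 arrays, with 19 residual degrees of freedom. Each SE thus rests on a spread pooled over the groups, though untreated arrays varied more for some probes. With only the groups compared, the SE of OR51B4 in the NET39 line against untreated cells was 0.15 in place of 0.11. That of HBE1 was 0.19 in place of 0.15. Fragments were tested by limma's moderated statistic with Benjamini-Hochberg adjustment over all probes, at an adjusted p under 0.05 and a log2 difference beyond 0.5, the study's limits. Differences that the choice of members had used (lines, and NLS-GFP against untreated cells) were counted where beyond 0.5 with no overlap of arrays, without a test. The members and lists were chosen with earlier results of these data known, and the adjusted p-values do not cover that choice. All members were named, with those list genes and neighbours that passed and the 5 genes most like HBE1 and OR51B4. Each gene outside the members stood for its brightest probe. Where no array of a group was above background, the fold is a bound, against the higher of the background level and the signal on each array. The fit was tested on simulated data. The number of arrays limits the precision.

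Same-numbered arrays deviated together in the NET47 fragment against NLS-GFP (3 pairs, r of 0.376 to 0.596) and in the NET39 against the NET29 full-length line (4 pairs, r of 0.326 to 0.66), a pairing read from the data, since nothing in the labels says what a number shares. Alternatives were median scaling, the deposited log2 values, an offset of 16, a filter on dim probes, only the groups compared, the replicate block, other controls for the lines and leaving out arrays. Leaving out untreated arrays from the correlation was chosen after seeing the data. Promoter bases were read from a RefSeq table, and probe positions within transcripts were not used.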

Additional observations from a re-analysis of the deposited data

Results flagged for a closer look

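Within the 30 groups of 4 arrays searched, 3 arrays lay apart from their group, where chance flags about 1 in 20 groups. These were HBB in untreated replicate 3 (6.10 on the normalised log2 scale), HBB in NET39 full-length replicate 1 (6.13) and HBG1 in NET39 full-length replicate 2 (7.02). Both HBB values were below background.

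The effect of the fragments differed by test in 13 probe comparisons, all lower with the NET47 fragment, of which 3 were no longer past the limits under median scaling. Against the NET29 fragment the log2 differences were -0.53 for HBG2, -2.61 for HBE1, -2.40 for OR51B4, -0.76 for OR51B2, and -1.45 and -1.63 for the OR51B5 probes. The HBG2 call was lost without NET29 soluble replicate 1 (-0.48, limma's adjusted p = 0.0744) or NET47 soluble replicate 3 (-0.46, adjusted p = 0.0666). Against the NET39 fragment they were -0.73 for HBG1, -0.78 for HBG2, -2.66 for HBE1, -2.48 for OR51B4, -0.73 for OR51B2, and -1.14 and -1.30 for the OR51B5 probes. Under median scaling HBG2 against the NET29 fragment was -0.29 (adjusted p = 0.319), and against the NET39 fragment HBG1 was -0.63 (adjusted p = 0.0557) and HBG2 -0.64 (adjusted p = 0.106).

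In 16 further pairs every array of one group was on one side of its control mean and every array of the other on the opposite side, and these differences were not tested. The NET29 line's effect minus that of the NET39 line was -0.89 for HBG1, -0.996 for HBG2, -2.89 for HBE1, -2.61 for OR51B4 and -0.95 for the first OR51B5 probe. The NET29 line's effect minus that of the NET47 line was -0.85 for HBG1, -0.93 for HBG2, -2.64 for HBE1 and -1.98 for OR51B4. The NET47 line's effect minus that of its soluble fragment was 0.97 for HBG1, 1.07 for HBG2, 2.75 for HBE1 and 2.39 for OR51B4. The NET29 line's effect minus that of its soluble fragment was -1.998 for OR51B4, and -1.15 and -1.67 for the OR51B5 probes. As given above, the NET29 fragment averaged below NLS-GFP under median scaling for OR51B4 and in deposited intensities for OR51B5. Full-length and soluble effects have different controls and different modes of expression, which cannot be told apart from the presence of the membrane anchor.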

How the results depend on the processing

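Of 130 single member values 42 were past the limits. Over 595 alternatives of those 0 changed direction and 13 were no longer past the limits, 12 of them tested values of HBG1, HBG2 or OR51B2 and 1 OR51B4 in the NET39 line against untreated cells, whose arrays overlapped under median scaling. Under median scaling the calls of HBG1 with the NET29 fragment, of HBG2 with the NET47 fragment against each of the other 3 transient groups, and of HBG1 with the NET47 against the NET39 fragment were lost. Over the alternatives of the other values 11 calls were gained, of HBE1, HBG1 or OR51B2. With an offset of 16 OR51B2 passed in the NET29 line (-0.62) and the NET39 line (0.53) against untreated cells. It passed too in the NET47 against the NET29 line (0.66). The count of member probes in the NET39 line against untreated cells, 1, was 0 under median scaling, 2 with an offset of 16 and 2 without the 3 arrays that had stood apart, and 1 to 2 leaving out single arrays. In NLS-GFP against untreated cells it was 1 without those 3 arrays in place of 0, and 0 to 1 leaving out single arrays. In the NET29 fragment against NLS-GFP it was 0 under median scaling in place of 1, and 0 to 1 leaving out single arrays. In the NET39 against the NET29 fragment it was 1 with the deposited log2 values and 1 with an offset of 16 in place of 0 (HBG1), and 0 to 1 leaving out single arrays. The causes were not tested. The correlation of HBE1 and OR51B4 deviations was 0.814 under median scaling and 0.0466 to 0.411 leaving out single untreated arrays.

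HBE1 in the NET29 line was -2.39 under median scaling and -2.23 without the 3 arrays. With an offset of 16 it was -2.71, and OR51B4 in that line was -2.14 in place of -1.77. HBE1 with the NET47 fragment was -2.12 under median scaling, with an adjusted p of 0.000524. With the replicate block HBE1 with the NET47 fragment was -2.51 (adjusted p = 3.6e-09), and no call or count of the members changed. In the other 11 comparisons not every pair of same-numbered arrays correlated above 0.1. Signals below background limit HBG1 in both low groups to bounds. They do so too for OR51B2 and the first OR51B5 probe with the NET47 fragment, and the second OR51B5 probe in the NET29 line. HBG2 and the other low-group values of OR51B2 and OR51B5 were at or near background without a bound. HBB, HBD and OR51B6 were uninformative.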
